A study of Mus musculus with 6 samples.

Results

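Nitric oxide and arginine metabolism genes were followed in bone marrow (BM) neutrophils during the growth of a lung tumor. There were 9 genes, chosen by name: the inducible nitric oxide synthase gene Nos2, its cofactor gene Gch1, the arginine supply genes Slc7a2 and Ass1, the arginase genes Arg1 and Arg2, and the suppressive ligand genes Cd274, Tgfb1 and Il10. All 9 were found among the 38887 Ensembl genes of the count table. Ly6G+ cells were isolated with beads from the BM of naive mice, of week 1 LL2 TB (tumor-bearing) mice and of week 3 LL2 TB mice. LL2 is a Lewis lung carcinoma line, here carrying luciferase, which the study injected into the veins of C57BL/6 mice so that lesions formed in the lung. Naive mice carried no tumor, and no other treatment or allele separated the groups in the labels, which give neither the age nor the sex of the mice behind a library. The study describes more samples per group than are analysed here. RNA was measured in 2 libraries per group, numbered as replicate mice. Every p-value below thus rests on the spread between pairs of libraries, which the fit draws toward that of the other tested genes.

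Arginine is the shared substrate of nitric oxide synthases and arginases. Nitric oxide synthase turns it into nitric oxide and citrulline and needs tetrahydrobiopterin, whose synthesis starts with GTP cyclohydrolase 1, the product of Gch1. Arginase splits it into ornithine and urea, and ornithine feeds polyamine and proline synthesis. Both enzymes are known as means by which myeloid-derived suppressor cells act on T cells, nitric oxide directly and arginase by removing arginine. PD-L1 (Cd274), transforming growth factor beta 1 (Tgfb1) and interleukin 10 (Il10) are protein ligands known for the same kind of suppression.

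The table held between 11994158 and 14127919 counts per library. A value of 3 counts, taken as the floor of detection, was worth between 0.2 and 0.245 CPM (counts in every 1000000 counts of a library, after TMM scaling), which covers counting error only. Of all genes, 12259 had enough counts to be tested with edgeR's quasi-likelihood test, and an adjusted p-value under 0.05 was the threshold for a change. Neutrophil transcripts dominated, with S100a8 between 147150 and 228488 CPM, but Ly6g, the gene of the antigen used for selection, had only between 6 and 32 counts per library. The summed level of 12 monocyte and macrophage markers was 1063 to 1168 CPM in naive, 1156 to 1236 in week 1 and 1066 to 1214 in week 3 libraries, ranges that overlapped, and none of the 12 was at or below the floor in every library. The summed level of 5 markers of neutrophil precursors, Mpo and Prtn3 among them, was 47.2 to 56.5 CPM in naive, 55.4 to 93.8 in week 1 and 256 to 354 in week 3 libraries. All 5 were higher in week 3 than in naive mice. All 9 B cell markers were lower, their sum falling from between 59.8 and 86.9 CPM to between 14.1 and 22.4. Markers of eosinophils, basophils and mast cells summed to 81 to 85.5 CPM in naive, 113 to 130 in week 1 and 55.6 to 69.6 in week 3 libraries. Of 6 tested, 4 were higher in week 1 and 3 were lower in week 3 than in naive mice. Of 12 neutrophil markers, 2 were higher and 3 lower in week 3 than in naive mice. In bulk RNA, fewer cells of a type and less RNA per cell cannot be told apart.

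Of the 9 genes, 6 could be tested. In week 1 against naive mice 1 of the 6 changed, Arg2, which was lower, where 7.99% of all tested genes changed, 4.23% higher and 3.76% lower. In week 3 against naive mice 2 of the 6 were higher, Nos2 and Gch1, where 12% of all tested genes were higher and 9.42% lower. In week 3 against week 1 mice 3 of the 6 were higher, Nos2, Gch1 and Arg2, where 12.9% of all tested genes were higher and 9.57% lower. With library totals in place of TMM scaling, the balance over all genes turned, to 890 higher and 1675 lower at week 3 against naive mice (1471 and 1155 with TMM) and to 856 and 2136 against week 1 mice (1586 and 1173), while again 2 and 3 of the 6 were higher. Nos2 reached the test only through its counts at week 3, so these counts of genes are descriptions. Arg1, Ass1 and Il10 stayed below the filter on low counts.

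**Figure D1:**
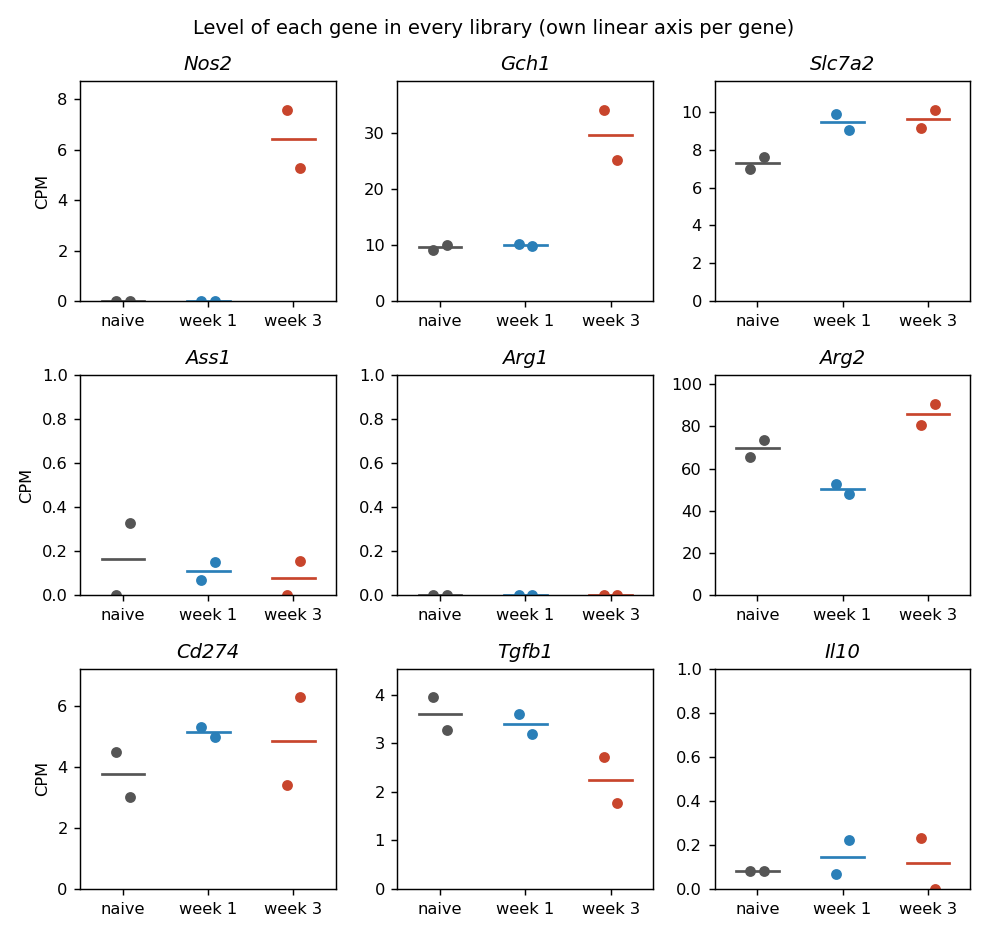
CPM of the 9 genes (vertical axes, linear and separate for each gene) in the 2 libraries of each group; points are libraries and bars are group means. Nos2 lay at 0 in the 4 naive and week 1 libraries and at 7.59 and 5.3 CPM in the week 3 libraries, Arg1 lay at 0 in all 6, and Arg2 dipped at week 1.

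Nos2 is the gene of the inducible synthase. It carries the identifier ENSMUSG00000020826 and spans 78920787 to 78960254 on the plus strand of chromosome 11 in GRCm38, in 29 merged exons; the coordinates of the other genes are of the same build. It had 0 counts in both naive libraries and 0 in both week 1 libraries. In the week 3 libraries it had 98 and 69 counts, which is 7.59 and 5.3 CPM. The gene was thus detected in week 3 mice and in none of the libraries of the other groups. A count of 0 in the 24351417 counts of the naive group allowed a level of up to 0.123 CPM, and 0 in the 26771587 counts of the week 1 group up to 0.112 CPM. Set against a floor of 3 counts per library, Nos2 was at least 26.7-fold higher in week 3 than in naive mice (adjusted p = 4.03e-05) and at least 30.5-fold higher than in week 1 mice (adjusted p = 2.95e-05). As the gene passed the filter on low counts only through the group where it was high, these p-values describe the counts and are no independent support. Between naive and week 1 mice, both at 0, no fold could be given.

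The week 3 libraries differed from each other by 1.43 times in Nos2, with replicate 1 the higher, while the summed precursor markers were higher in replicate 2. The part of the precursor cells in the Nos2 counts was not tested. The monocyte and macrophage markers, which name another known source of Nos2, had 0 of 12 genes higher and 1 lower in week 3 against naive mice. Their sum was higher in replicate 1 of week 3 (1214 CPM) than in replicate 2 (1066 CPM), the same order as Nos2, and their part in the Nos2 counts was not tested. No 50-base stretch of the Nos2 transcript was shared with the transcripts of its relatives Nos1 and Nos3 (0 shared stretches in each pair), so a read of that length from one matches none of the others exactly.

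Gch1 encodes the enzyme that begins tetrahydrobiopterin synthesis (ENSMUSG00000037580, chromosome 14, 47153895 to 47189413, minus strand). Its libraries had 9.09 and 10.1 CPM in naive, 10.2 and 9.76 in week 1 and 34.1 and 25.1 in week 3 mice. Both week 3 libraries lay far above the other 4, which overlapped. The log2 fold change was 1.63 (standard error 0.182, adjusted p = 4.76e-05) at week 3 against naive mice and 1.57 (standard error 0.179, adjusted p = 5.15e-05) against week 1 mice, a rise of 3.09-fold and 2.96-fold. At week 1 against naive mice it was 0.06, with a 95% interval from -0.35 to 0.47 (adjusted p = 0.892). As in Nos2, replicate 1 of week 3 was the higher.

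Gchfr encodes the feedback regulator that binds the Gch1 enzyme and limits its activity. It was the gene of the tetrahydrobiopterin list with the largest difference at week 3, with 1 and 1 counts in naive, 5 and 0 in week 1 and 39 and 25 in week 3 mice. It was at least 10.2-fold higher in week 3 than in naive mice against the floor (adjusted p = 0.00268), and its fitted log2 fold change against week 1 mice was 3.76 (standard error 0.802, adjusted p = 0.00456), on few counts. Like Nos2, it passed the filter only through week 3, and its p-values are descriptions. The enzyme and its inhibitory partner therefore both had more transcript at week 3.

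The stretches of 150 bases before the annotated starts of Gch1 and Gchfr are shown because both genes rose together, read from RefSeq promoter sequence of GRCm38.p6. Of the 9 genes, 4 had a promoter in that table (Ass1, Tgfb1, Gch1 and Cd274). The Gch1 stretch is chr14:47189414-47189563 on the minus strand and the Gchfr stretch is chr2:119167623-119167772 on the plus strand. Capitals mark the motifs found, written 5′ to 3′.
Gch1: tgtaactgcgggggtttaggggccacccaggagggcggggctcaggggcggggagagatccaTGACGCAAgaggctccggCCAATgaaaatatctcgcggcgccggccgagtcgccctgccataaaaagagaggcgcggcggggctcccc
Gchfr: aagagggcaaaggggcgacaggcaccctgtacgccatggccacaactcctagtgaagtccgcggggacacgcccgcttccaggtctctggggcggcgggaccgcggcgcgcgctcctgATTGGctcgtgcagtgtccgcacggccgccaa
The Gch1 stretch held TGACGCAA, an element of the cyclic AMP and C/EBP type, followed by a CCAAT box. The Gchfr stretch held CCAAT on the other strand, written there as ATTGG. Both strands of the 250 bases upstream of 32851 promoters were searched. CCAAT occurred in 33.8% of them and TGACGCAA in 0.438%. The NF-kappaB motif (0.98% of promoters), TTCNNNGAA for STAT factors (7.02%) and ACGTG, the core of the hypoxia response element (16.6%), were in neither of the 250-base windows, and TATAAA (12.4%) was in that of Gch1 outside the bases printed. These are matches of letters in a window and not measured binding.

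The other tested genes of tetrahydrobiopterin synthesis and recycling moved less. Of the 6 tested genes of that list, which leaves out Gch1 itself, 0 changed in week 1 against naive mice by edgeR and by DESeq2, with 2 at an unadjusted p under 0.05, and 2 were higher in week 3 against naive mice, Gchfr and Pts, 33.3% where 21.4% of all tested genes changed. Pts, which encodes the second enzyme of the pathway, had 94 and 62 counts in naive, 178 and 101 in week 1 and 164 and 171 in week 3 mice, so that its log2 fold change at week 3 reached 1.04 (adjusted p = 0.00923). Between week 3 and week 1 mice Gchfr was higher and Pcbd2, which encodes a dehydratase that regenerates the cofactor, was lower (log2 difference -0.77, adjusted p = 0.00478). Spr and Qdpr were called in no comparison, and Pcbd1 was listed at 0 in every library.

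Slc7a2 encodes a transporter of cationic amino acids that carries arginine (ENSMUSG00000031596, chromosome 8, 40862396 to 40922308, plus strand). It had 6.96 and 7.61 CPM in naive, 9.87 and 9.01 in week 1 and 9.14 and 10.1 in week 3 mice. Both tumor groups lay above naive mice without overlap, as 53.2% of all tested genes were separated in week 1 against naive mice and 59.6% in week 3 against naive mice. The log2 fold changes were 0.38 (95% interval -0.04 to 0.79, adjusted p = 0.267) at week 1 and 0.41 (-0.01 to 0.82, adjusted p = 0.161) at week 3, neither past the threshold.

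Ass1 encodes argininosuccinate synthase, which together with the product of Asl turns citrulline back into arginine (ENSMUSG00000076441, chromosome 2, 31470207 to 31520672, plus strand). It had 0 and 4 counts in naive, 1 and 2 in week 1 and 0 and 2 in week 3 mice. Only the second naive library exceeded the floor of 3 counts, and with 9 counts in all (exact 95% Poisson interval 4.12 to 17.1) a difference was not detectable at this depth. Asl, in contrast, had between 62 and 116 counts per library and was called in no comparison. In the list of arginine transport and citrulline recycling, 4 of 9 genes could be tested and 0 of them changed in any comparison by edgeR or by DESeq2, with 1 in each comparison at an unadjusted p under 0.05. Those 4 were Asl, Slc7a1, Slc7a7 and Slc3a2. Otc and Cps1, of the urea cycle in liver, had at most 2 and 3 counts in a library.

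**Figure D2:**
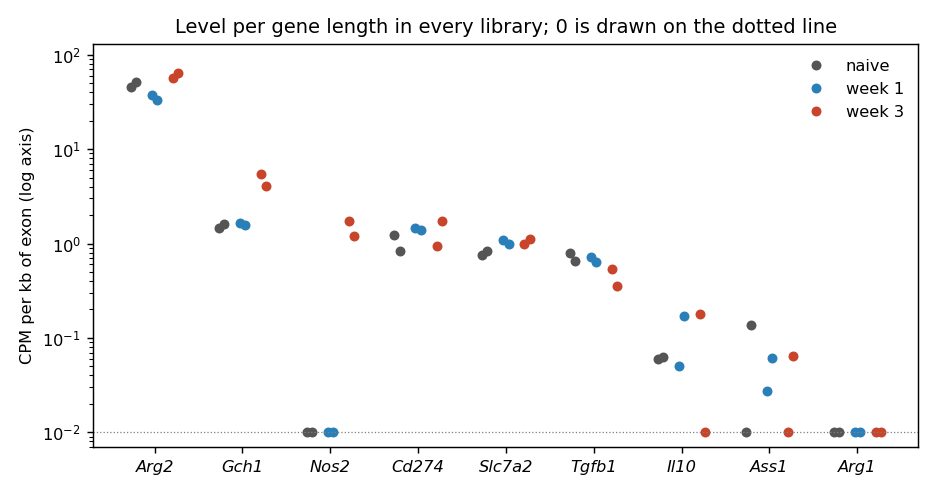
Level of each of the 9 genes per length in every library, as CPM per kb of merged exon on a log axis, with libraries as points colored by group and a level of 0 drawn on the dotted line. Arg2 stood above the other 8 genes in all 6 libraries, and Nos2 left 0 only at week 3, to between 1.2 and 1.72 CPM per kb.

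The arginase genes lay at opposite ends of the order of levels. Arg1, the cytosolic arginase of liver and of many macrophages (ENSMUSG00000019987, chromosome 10, 24915221 to 24927484, minus strand), was listed at 0 in all 6 libraries. Over their 79221900 counts a 0 allowed a level of up to 0.0379 CPM, for counting error only. A count of 0 in every library was also found for 18564 genes, 47.7% of those listed, 5616 of them protein-coding, and whether Arg1 reads were lost in the counting cannot be seen from the table. Arg2, the mitochondrial arginase (ENSMUSG00000021125, chromosome 12, 79130777 to 79156301, plus strand), had between 642 and 1182 counts in each library. Per kb of exon its level was between 334 and 615 times the floor of 3 counts for Arg1.

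The Arg1 and Arg2 transcripts, of 1477 and 1428 bases in GENCODE, shared 0 stretches of 50 bases, so a read of that length from either matches the other nowhere exactly.

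Arg2 had 65.6 and 73.5 CPM in naive, 52.9 and 47.8 in week 1 and 80.6 and 90.8 in week 3 mice. The 3 groups did not overlap, with week 1 lowest and week 3 highest. Of all tested genes, 53.2% were separated in week 1 against naive mice and 59.6% in week 3 against naive mice. In week 3 against week 1 mice 63.9% were. The fall at week 1 measured -0.46 on the log2 scale (standard error 0.127, adjusted p = 0.0411), and it lost its call when any library of either group was left out (adjusted p between 0.104 and 0.249), with the replicate number as a block (adjusted p = 0.0547) and without TMM scaling (adjusted p = 0.0797). The rise from week 1 to week 3 measured 0.77 (standard error 0.127, adjusted p = 8.12e-04), and its adjusted p-value stayed under the threshold in all 13 alternatives. Week 3 against naive mice gave 0.30, with an interval from 0.03 to 0.57 and an adjusted p of 0.109. Arg2 shares 285 exon bases with Vti1b on the opposite strand, and strand-specific counting is not stated. Vti1b differed by -0.05 (adjusted p = 0.878), 0.42 (adjusted p = 0.047) and 0.47 (adjusted p = 0.0268) on the log2 scale in week 1 against naive, week 3 against naive and week 3 against week 1 mice, and its part in the Arg2 counts was not tested.

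**Figure D3:**
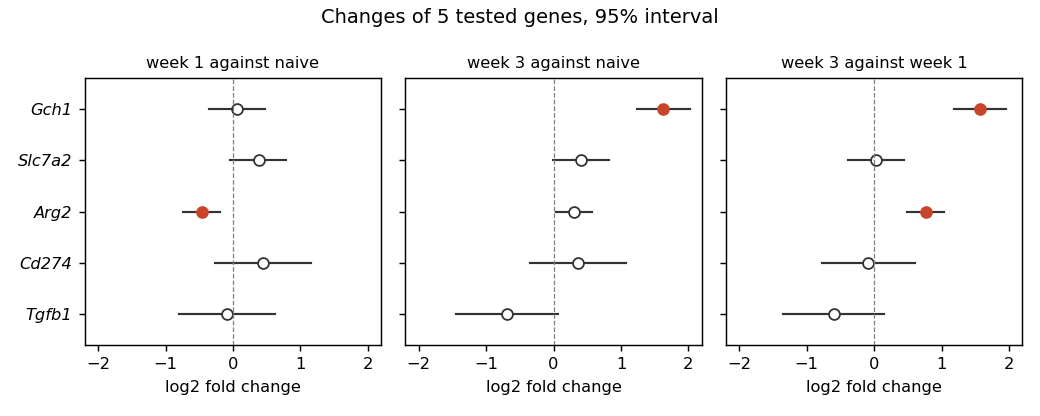
Log2 fold changes (horizontal axes) of 5 of the 6 tested genes in the 3 comparisons, with 95% intervals from the edgeR fit; filled points have an adjusted p-value under 0.05. Nos2 is left out because its fold is a lower bound; Gch1 was called in both comparisons with week 3, and Arg2 was lower at week 1 and higher between week 1 and week 3.

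Ornithine, the product of arginase, is used by the next enzymes of the pathway, and several of their genes differed at week 3. Of 17 tested genes for ornithine, polyamine and proline metabolism, 0 changed in week 1 against naive mice by edgeR, with 3 at an unadjusted p under 0.05 and 1 called by DESeq2. Of the same genes 6 were higher and 2 lower in week 3 against naive mice, and 5 were higher and 1 lower in week 3 against week 1 mice. In these comparisons 7.99%, 21.4% and 22.5% of all tested genes changed in either direction, against 0%, 47.1% and 35.3% of this list, whose median log2 fold changes were -0.14, -0.06 and 0.26. Since no test of the list was made, these shares are descriptions.

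Among those genes Oaz2 and Azin1 act on the stability of ornithine decarboxylase in opposite ways, as an antizyme and as an inhibitor of antizymes. Oaz2 had 536 and 605 counts in naive, 785 and 678 in week 1 and 1271 and 1171 in week 3 mice, which is 1.04 log2 units more at week 3 than in naive mice (adjusted p = 1.00e-04). Azin1 had 975 and 810 counts in naive, 885 and 830 in week 1 and 1666 and 1498 in week 3 mice, which is 0.77 log2 units more (adjusted p = 7.59e-04). Both antagonists thus rose. Odc1, ornithine decarboxylase itself, was called in no comparison.

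Sat1, which encodes the enzyme that acetylates spermidine and spermine for their breakdown, was 0.60 log2 units higher (adjusted p = 0.00212) at week 3 against naive mice, and 0.89 (adjusted p = 1.16e-04) against week 1 mice. Sms, which encodes spermine synthase, went the other way, from 180 and 173 counts in naive and 181 and 193 in week 1 to 78 and 75 in week 3 mice. Its log2 fold change against naive mice was -1.26 (standard error 0.186, adjusted p = 3.75e-04). Oat, which encodes ornithine aminotransferase and was the next gene of the list by adjusted p-value, had 85 and 112 counts in naive, 140 and 111 in week 1 and 230 and 255 in week 3 mice, a rise by 1.24 log2 units over naive mice (adjusted p = 5.58e-04). The genes named from this list thus moved in both directions, with Sms the 1 that fell.

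Beside Nos2, the other nitric oxide synthase genes were low. Nos1, the neuronal form, had 18 and 24 counts in naive, 37 and 41 in week 1 and 24 and 17 in week 3 mice and was called in no comparison. Nos3, the endothelial form, had at most 3 counts. Per kb of exon, Nos1 had a mean level of 0.142 CPM at week 3, when Nos2 had 1.46. Of the 10 tested partners and targets of nitric oxide synthases, Nos1 included, 0 changed at week 1 against naive mice by edgeR and by DESeq2, with 5 at an unadjusted p under 0.05, and 3 were higher and 1 lower at week 3 against naive mice, 40% where 21.4% of all tested genes changed. Among the higher ones were Nosip, a protein that binds nitric oxide synthase, up by 0.82 log2 units (adjusted p = 0.00162), and the calmodulin gene Calm3, up by 0.47 (adjusted p = 0.00793). Calmodulin is a subunit of nitric oxide synthase as well as a general calcium sensor. Nos1ap, an adaptor of neuronal synthase, was lower (-0.73, adjusted p = 0.01). Gucy1a1, a subunit of the guanylate cyclase that senses nitric oxide, had between 1 and 17 counts per library.

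Cd274 encodes PD-L1, which inhibits T cells through PD-1 (ENSMUSG00000016496, chromosome 19, 29367455 to 29388095, plus strand). It had 4.51 and 3.03 CPM in naive, 5.33 and 4.99 in week 1 and 3.41 and 6.3 in week 3 mice. The week 3 libraries were the farthest apart of the 3 pairs and spanned most of the range of the others. Log2 fold changes were 0.45 (95% interval -0.26 to 1.16, adjusted p = 0.451) at week 1 against naive, 0.36 (-0.35 to 1.08, adjusted p = 0.485) at week 3 against naive and -0.09 (-0.78 to 0.60, adjusted p = 0.874) at week 3 against week 1 mice. Against naive mice these intervals reached beyond 1 log2 unit upward. Without replicate 2 of week 3 the sign at week 3 against naive mice turned, to -0.14 (adjusted p = 0.853).

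Tgfb1 encodes a cytokine that is secreted in a latent form (ENSMUSG00000002603, chromosome 7, 25687002 to 25705077, plus strand). Its libraries had 3.95 and 3.27 CPM in naive, 3.6 and 3.2 in week 1 and 2.71 and 1.77 in week 3 mice. Both week 3 libraries lay below the other 4, on 35 and 23 counts. The log2 fold change at week 3 was -0.69 (95% interval -1.44 to 0.06, adjusted p = 0.184) against naive and -0.60 (-1.35 to 0.14, adjusted p = 0.233) against week 1 mice, so neither difference passed the threshold. Between groups, 59.6% and 63.9% of all tested genes did not overlap in these comparisons.

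Il10 encodes an inhibitory cytokine (ENSMUSG00000016529, chromosome 1, 131019845 to 131024974, plus strand). It had 1 and 1 counts in naive, 1 and 3 in week 1 and 3 and 0 in week 3 mice. No library exceeded the floor of 3 counts, and the 9 counts in all (exact 95% Poisson interval 4.12 to 17.1) did not allow a comparison.

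The other ligands, receptors and processing genes of the same group held 14 tested genes of 22. In week 1 against naive mice 0 changed by edgeR and by DESeq2, with 3 at an unadjusted p under 0.05. There were 5 higher and 1 lower in week 3 against naive mice, which is 42.9% of the list where 21.4% of all tested genes changed. Against week 1 mice 4 were higher and 1 lower, 35.7% where 22.5% of all tested genes changed. Thbs1, whose product thrombospondin 1 can activate latent TGF-beta, had 6560 and 3602 counts in naive, 6260 and 4697 in week 1 and only 351 and 260 in week 3 mice. Its log2 fold change at week 3 was -4.11 (standard error 0.246, adjusted p = 3.91e-07) against naive and -4.02 (standard error 0.245, adjusted p = 3.47e-07) against week 1 mice. Platelets also hold thrombospondin 1, and the summed level of 4 megakaryocyte and platelet markers went from between 97.7 and 104 CPM in naive to between 56.5 and 67.6 in week 3 mice; their part in the fall was not tested.

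Furin, the protease that cuts the TGF-beta precursor, was higher by 0.52 (adjusted p = 0.0039) at week 3 against naive mice, and the receptor gene Tgfbr2 by 0.95 (adjusted p = 0.00249). Cd86, a ligand of CD28 and CTLA-4, was higher by 0.67 (adjusted p = 0.0265). Lgals9, which encodes the ligand galectin-9, was higher by 0.57 (adjusted p = 0.0122), and Il10rb, a subunit of the interleukin 10 receptor, by 0.39 (adjusted p = 0.0321). Tgfb3 and Pdcd1lg2, the second PD-1 ligand, stayed at or below 4 counts in every library, and Vsir, which encodes the inhibitory receptor VISTA, had between 8224 and 12066 counts and was called in no comparison.

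**Figure D4:**
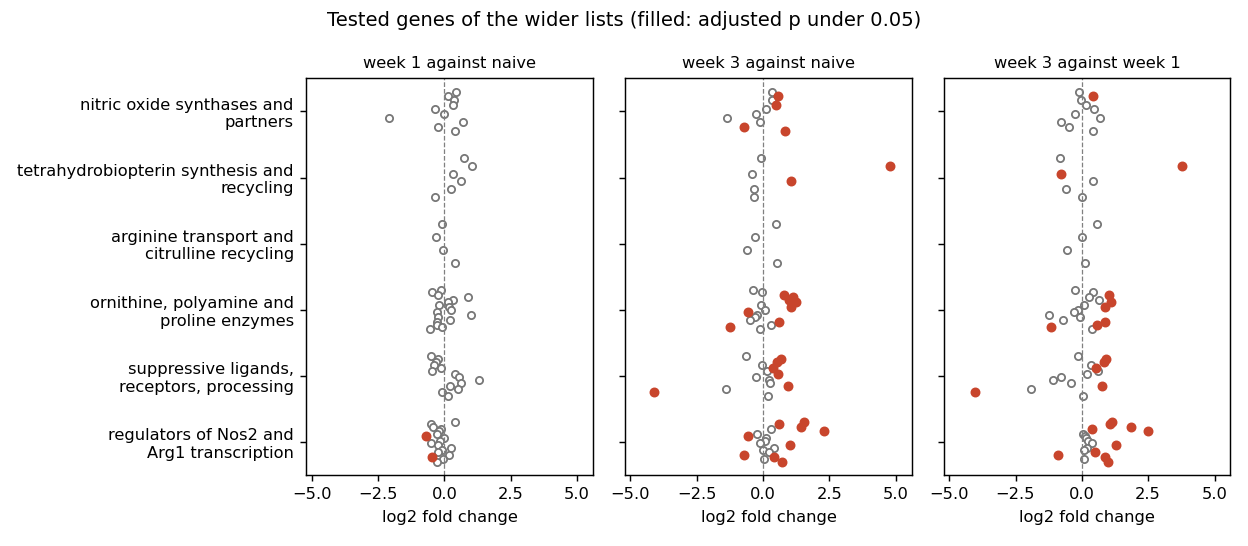
Log2 fold changes (horizontal axes) of the 69 tested genes of 6 lists around nitric oxide, arginine and the suppressive ligands, in the 3 comparisons; each point is a gene and filled points have an adjusted p-value under 0.05. In week 1 against naive mice 2 of 69 points are filled, against 29 and 24 in the comparisons with week 3 (23 and 20 of them higher, or 18 of 29 and 14 of 25 with library totals in place of TMM), where Gchfr lies far to the right and Thbs1 far to the left.

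Transcription of Nos2 and Arg1 is known to respond to interferon gamma, Toll-like receptors, interleukin 4 and hypoxia, and 18 genes of these routes were followed, all of them tested. At week 1 against naive mice 2 were lower and 0 higher. These were Stat3 (log2 fold change -0.48, adjusted p = 0.0176) and Irf8 (-0.70, adjusted p = 0.0156), and 0 genes of the 6 lists were lower in that comparison without replicate 1 of naive, replicate 1 of week 1 or replicate 2 of week 1 mice. At week 3 against naive mice 7 were higher and 2 lower, and against week 1 mice 9 were higher and 1 lower. Of this list 50% changed at week 3 against naive mice, where 21.4% of all tested genes did, with a list median of 0.25 and a median over all genes of 0.03.

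Il4ra, the receptor subunit for interleukins 4 and 13, had 1522 and 2158 counts in naive, 1836 and 1832 in week 1 and 10587 and 8381 in week 3 mice. The rise over naive mice was 2.30 log2 units (standard error 0.175, adjusted p = 1.91e-06). Ifngr1, a subunit of the interferon gamma receptor, had 1100 and 1000 counts in naive, 850 and 920 in week 1 and 2927 and 2957 in week 3 mice, a rise by 1.43 log2 units (standard error 0.123, adjusted p = 5.56e-06). Both receptor genes were called higher at week 3, by more than the spread between libraries. Cebpb, a transcription factor of both genes, rose by 1.53 log2 units (adjusted p = 3.56e-05), and Myd88, the adaptor of most Toll-like receptors, by 1.03 (adjusted p = 4.23e-05). Irf1, a target of interferon signals, was called in no comparison. Stat3, lower at week 1, was higher at week 3 against naive mice (0.41, adjusted p = 0.0155), while Irf8 stayed lower (-0.58, adjusted p = 0.0161).

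**Figure D5:**
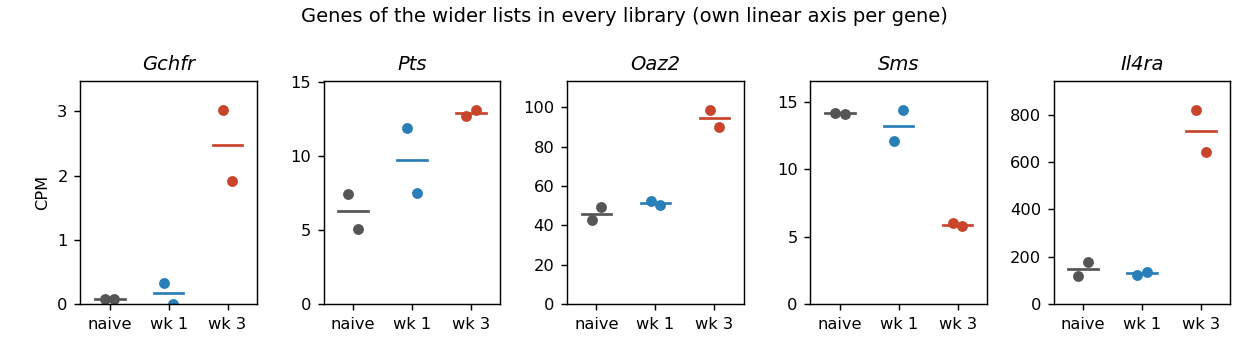
CPM (vertical axes, linear and separate for each gene) of 5 genes of the wider lists in the 2 libraries of each group, with bars at the group means. In Gchfr, Oaz2 and Il4ra both week 3 libraries stand above the other 4, in Sms below them, and in Pts the week 1 libraries lie between.

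Levels of the 9 genes could be ranked per kb of exon. In naive mice the order was Arg2 (mean 48.7 CPM per kb), Gch1 (1.53), Cd274 (1.04), Slc7a2 (0.797) and Tgfb1 (0.716), followed by Ass1 (0.0678) and Il10 (0.0614) and by Arg1 and Nos2 at 0. Slc7a2 and Tgfb1 overlapped between libraries, and the steps above them did not. The step from Cd274 to Slc7a2 was barely separated, with a lowest Cd274 library of 0.835 and a highest Slc7a2 library of 0.833. In week 3 mice Nos2, with a mean of 1.46 CPM per kb, took the third place behind Arg2 (60) and Gch1 (4.74). It could not be separated from Cd274 (1.34), nor Cd274 from Slc7a2 (1.06). Arg2 was the most abundant of the 9 genes in every group, also at week 3 when Nos2 was detected.

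For the 3 tested genes with the widest range of group means, the genes with the most similar pattern were sought by Pearson's r of log2 CPM over the 6 libraries, which share their groups. For Nos2, the nearest was Spint1 (r = 1.0000), with 0 CPM in the naive and week 1 libraries and 11.4 and 7.68 CPM in the week 3 libraries, followed by Mcur1, Fignl2, Ufsp2 and Gnpda2 (r = 0.9982). The r does not reflect the size of a change. Mcur1 had 28 to 28.6 CPM in the naive and week 1 libraries and 40.2 and 39 in the week 3 libraries. Fignl2 had 0.533 to 0.711 CPM in the former and 21.5 and 17.6 in the latter. For Gch1 the nearest genes were Eps15 (r = 0.9983), Il1rap, Ypel5, Gnpda2 and Capza2, and for Arg2 they were Rbpj (r = 0.9915), Aatk, Junb, Ripk1 and Apobr. Of the 12259 genes tested, 38 reached 0.99 with Nos2, 28 with Gch1 and 2 with Arg2.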

How the data were processed

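RNA from Ly6G+ BM cells was sequenced in 6 libraries, 2 for each of 3 groups taken from the labels. The authors deposited expected counts per Ensembl gene as whole numbers, made per their methods with RSEM against mm10 and not scaled between libraries; the submitters' processing notes also name Bowtie2 and RSEM 1.2.31. GENCODE annotation on GRCm38 (the same build as mm10) gave positions, merged exon lengths and symbols, the last for 37570 of 38887 genes. Whether counting used strand, and the Ensembl release, are not given in the sources used here.

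Genes passing edgeR's filterByExpr (12259) were TMM scaled. Groups were compared with edgeR 4.0.16 (glmQLFTest, R 4.3.3), its quasi-likelihood test, using all 6 libraries and the group as only factor, and Benjamini-Hochberg adjustment over all genes tested. Standard errors are the fold change divided by the root of F. CPM uses library totals times TMM factors. DESeq2 1.42.0, other scalings and filters, the groups compared alone, a replicate block and each library left out were alternatives. The tests were tried on simulated data.

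The members and lists were chosen with earlier results of these data known. From each wider list, the 4 called genes with the smallest adjusted p-value were to be named; Oat, Lgals9, Il10rb, Stat3, Irf8, Odc1, Irf1, Vsir, Nos1, Nos3 and other genes named without a call were added after their values were seen, as were Pcbd1, Asl and Gucy1a1. Replicate libraries of a group differed by more than counting noise (chi-square per degree of freedom between 8.84 and 11.8). The labels number replicates as different mice, so no pairing was used. Some genes of the lists were counted but are not reported here by name.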

Additional observations from a re-analysis of the deposited data

Results flagged for a closer look

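By the test of week 3 against week 1, the change from naive mice differed between these times for 3 of the 6 tested genes. In that test 22.5% of all tested genes changed in either direction. Nos2, and Gchfr below, entered it only through their week 3 counts, so their values are descriptions. The log2 difference was at least 4.93 for Nos2, 1.57 for Gch1 and 0.77 for Arg2. Both times were set against the same naive libraries, which also enter the scaling and the estimate of spread. Among the named genes of the wider lists it was 3.76 for Gchfr, 2.50 for Il4ra, 1.86 for Ifngr1, 1.28 for Myd88, 1.12 for Cebpb, 1.09 for Oat and 1.01 for Azin1. It was 0.90 for Cd86, 0.89 for Sat1, 0.89 for Stat3, 0.87 for Oaz2, 0.82 for Furin, 0.75 for Tgfbr2 and 0.52 for Il10rb. In the opposite direction it was -4.02 for Thbs1, -1.16 for Sms and -0.77 for Pcbd2.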

How the results depend on the processing

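The calls of Nos2 and Gch1 at week 3, against naive and against week 1 mice, and of Arg2 at week 3 against week 1 stayed under the threshold in all 13 alternatives, Nos2 having entered the test only through week 3. Where a value moved, the cause was not tested. The fall of Arg2 at week 1 passed the threshold in 7 of 13, so that the number of the 9 genes called in that comparison was 0 with library totals only, 0 with the replicate block and 0 with a change over 5-fold, and between 0 and 1 with each library left out. Leaving out either library of naive or of week 1 mice ended that call. With a change over 5-fold, 1 of the 9 genes was called at week 3 against naive and 1 against week 1 mice, in both cases Nos2; with a library left out these numbers were 2 to 2 and 3 to 3.

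Over all genes, the number called at week 1 against naive mice was 1537 without a filter beyond 1 count, 92 with a change over 5-fold and between 148 and 1100 with a library left out, the lowest without replicate 1 of naive mice. At week 3 it was 208 against naive and 196 against week 1 mice with a change over 5-fold, and 1372 to 2339 and 1452 to 2742 with a library left out. For the wider lists at week 1 it was 4 with RLE size factors, 8 without the filter, 4 with DESeq2, 0 with a change over 5-fold and 0 to 2 with a library left out. At week 3 it was 2 and 3 with a change over 5-fold, and 21 to 28 and 18 to 25 with a library left out. Without the filter 1 of the 9 genes, Arg1, remained untested, and Ass1 and Il10 then had adjusted p-values between 0.847 and 0.99.

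Signs turned only for differences that passed no threshold. Without replicate 1 of naive mice, Gch1 at week 1 went to -0.01 and Tgfb1 at week 1 to 0.06 (with a library left out, ranges of -0.01 to 0.14 and -0.21 to 0.06). Cd274 went to -0.14 at week 3 against naive mice without replicate 2 of week 3, and to 0.29 against week 1 mice without replicate 1 of week 3, in ranges of -0.14 to 0.74 and -0.60 to 0.29. Slc7a2 at week 3 against week 1 went to -0.17 with library totals only, to -0.00 without the filter, to -0.00 without replicate 1 of naive, to -0.06 without replicate 2 of week 1 and to -0.05 without replicate 2 of week 3 mice, with 0.10 as its highest value. Library totals alone turned the wider lists from 23 higher and 6 lower to 18 and 11 at week 3 against naive mice, and from 20 and 4 to 14 and 11 against week 1 mice, and shifted the median of all genes to -0.11 at week 3 against naive and to -0.22 against week 1 mice.

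Same-numbered libraries of different groups did not deviate together (r of deviations between 0.0101 and 0.0379). With the replicate block, 959, 2559 and 2709 genes were called at week 1 against naive, week 3 against naive and week 3 against week 1 mice, and apart from Arg2 at week 1 no call among the 9 genes changed. Ass1 and Il10 had at most 4 counts in a library, too few for a comparison at this depth, and whether the 0 of Arg1 comes from depth was not tested.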

Other observations

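Gchfr and Spint1, the gene closest to Nos2 in pattern, lie 65 kb apart on chromosome 2 of GRCm38. In a window of 100 kb on either side of Gchfr, chosen after both had been seen, 9 genes had counts and all were tested. Spint1, which encodes a membrane inhibitor of serine proteases, had 0 counts in the 4 naive and week 1 libraries and 147 and 100 in the week 3 libraries, the pattern it was chosen for. Rhov, at 96.8 kb, had 83 and 120 counts in naive, 88 and 94 in week 1 and 376 and 370 in week 3 mice, a log2 fold change of 1.81 (adjusted p = 3.67e-05). Dnajc17, whose annotated span lies 0.11 kb from that of Gchfr, had 0.85 (adjusted p = 0.14) and overlapping libraries. Of the 7 genes of the window other than Gchfr and Spint1, Rhov was the 1 that changed between week 3 and naive mice. Of all tested genes, 21.4% changed in that comparison.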
